A study of Mus musculus with 12 samples.

Results

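The subunits of rod transducin and of the rod phosphodiesterase PDE6 are the 6 genes described here: Gnat1, Gnb1, Gngt1, Pde6a, Pde6b and Pde6g. They were taken by gene symbol from a table of 52962 genes, and all 6 were among the 20267 genes with enough counts to be tested. The data are 12 libraries made from mouse rod photoreceptors, which serve vision in dim light. Plasmids were electroporated into the retina, which was dissociated at postnatal day 8, and GFP-positive rods were picked by hand with a micromanipulator, 50 to 100 cells to a library. The RNA was amplified with a stranded total RNA kit for picogram inputs. There were 4 groups of 3 libraries. The shRNA mCsnk2a1 group carried a short hairpin RNA against mouse Csnk2a1, the catalytic alpha subunit of the protein kinase CK2, and the shRNA Control group carried a control hairpin. The pcDNA4c mCsnk2a1 group carried the expression vector pcDNA4c with mouse Csnk2a1, and the pcDNA4c Control group is labelled as the control of that vector. Electroporation, the age, the GFP selection and the kit were common to all 4 groups. The sources used here do not give the mouse strain or the promoters of the plasmids. The labels call the 3 samples of a treatment independent but do not say whether they came from separate animals, so a p-value here measures only how far these samples spread, which may be technical. The title of the series asks how CK2 bears on the genes that NRL drives in rods.

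Rod transducin is the G protein of the rod response to light. Gnat1 encodes its alpha subunit, which exchanges GDP for GTP in light, and Gnb1 and Gngt1 encode the beta and gamma subunits that hold the inactive alpha subunit at the disc membrane. The GTP-bound alpha subunit binds PDE6, an enzyme that hydrolyses cyclic GMP and so lets the cation channels of the outer segment close. Pde6a and Pde6b encode the catalytic subunits of PDE6, and Pde6g encodes the small gamma subunit that holds them inactive in darkness. Gnb1 is also used by many other cells, and the other members are known mainly from photoreceptors. NRL, a bZIP factor of the MAF family, and CRX, a homeobox factor, drive the transcription of many rod genes as the outer segment forms.

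Of the 6 members, 3 matched the RefSeq promoter table. The windows of these 3 genes, Gnb1, Gngt1 and Pde6b (GRCm38.p6), are shown. Each window runs from 250 bases before the RefSeq start of the gene to 50 bases after it, and for Gngt1 and Pde6b that start is not the one in the deposited annotation. They cover chr4:155491111-155491410, chr6:3993758-3994057 and chr5:108388123-108388422, all on the plus strand. Capitals mark exact matches to TAATCC, a core bound by CRX, to TGCTGA, part of the MAF and NRL response element, and to TGAGTCA, the centre of the long form of that element, which was added after the sequences had been read. Both strands were searched, and no 2 marked matches overlap.
Gnb1: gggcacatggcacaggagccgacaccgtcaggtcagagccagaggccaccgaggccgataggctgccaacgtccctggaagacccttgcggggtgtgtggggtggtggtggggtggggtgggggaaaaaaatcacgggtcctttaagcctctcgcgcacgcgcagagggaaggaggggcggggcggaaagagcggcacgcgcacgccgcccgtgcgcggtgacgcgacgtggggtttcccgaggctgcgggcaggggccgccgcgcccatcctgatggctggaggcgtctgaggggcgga
Gngt1: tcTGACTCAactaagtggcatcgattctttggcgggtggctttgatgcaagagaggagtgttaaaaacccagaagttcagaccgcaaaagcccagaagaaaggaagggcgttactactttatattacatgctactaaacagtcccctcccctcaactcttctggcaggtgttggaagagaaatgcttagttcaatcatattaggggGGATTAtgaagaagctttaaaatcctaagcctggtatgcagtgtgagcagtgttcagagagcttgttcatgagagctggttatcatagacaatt
Pde6b: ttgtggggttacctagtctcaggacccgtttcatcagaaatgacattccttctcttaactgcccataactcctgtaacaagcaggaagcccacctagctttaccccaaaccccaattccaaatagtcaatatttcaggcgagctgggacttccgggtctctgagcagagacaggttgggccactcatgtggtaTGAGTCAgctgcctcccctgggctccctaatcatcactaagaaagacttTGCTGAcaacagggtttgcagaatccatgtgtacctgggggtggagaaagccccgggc

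In the Gngt1 window TAATCC is on the minus strand at -44 to -39 from the RefSeq start, printed as GGATTA, and TGAGTCA is on the minus strand at -248 to -242, printed as TGACTCA. In the Pde6b window TGAGTCA is at -57 to -51 and TGCTGA at -8 to -3, both on the plus strand. The Gnb1 window holds none of the 3 strings. Of 32851 mouse promoter windows of the same 300 bases, 7.06% hold TAATCC, 19.5% hold TGCTGA and 5.2% hold TGAGTCA. These are matches of letters only.

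In the annotation of the deposited files, build mm10 (GRCm38), Gnat1 lies on chromosome 9 at 107674474 to 107679712 on the minus strand and Gnb1 on chromosome 4 at 155491361 to 155559269 on the plus strand. Gngt1 lies on chromosome 6 at 3993792 to 3997436 on the plus strand. Pde6a spans chromosome 18 at 61220315 to 61289924 and Pde6b chromosome 5 at 108388391 to 108432397, both on the plus strand. Pde6g lies on chromosome 11 at 120447605 to 120453500 on the minus strand. These are whole genes with their exons, introns and untranslated regions, and all 6 are protein coding. The processed pseudogene Gm13171 lies within Gnb1 on the opposite strand, with a median of 0 CPM, and Rps2-ps10 lies opposite Pde6a with a median of 5.0 CPM. Reads from Gnb1 can also be shared with its pseudogenes Gnb1-ps2 and Gnb1-ps3, so its level is less certain than those of the others.

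Per transcript length, the subunits of each complex stood at very different levels. TPM values, summed over the transcripts of a gene, are scaled by transcript length and allow genes to be set side by side. Gngt1 had a median of 295.5 TPM over the 12 libraries (156.6 to 607.4) and Gnb1 one of 262.4 TPM (157.1 to 597.8). Gnat1, the subunit they pair with, had a median of 45.3 TPM (11.0 to 111.7). These sums include partial and noncoding transcripts, and those with the whole coding region made up only 18.1 to 38.8% of Gnb1 TPM. In such transcripts Gnb1 averaged 115.8 TPM beside 83.0 for Gnat1 in shRNA mCsnk2a1, and 53.6 beside 10.2 in pcDNA4c Control. On that measure the mean of Gnb1 was below that of Pde6g in every group. Within PDE6 the inhibitory Pde6g had a median of 161.8 TPM (103.8 to 258.2) and the catalytic Pde6b one of 100.8 TPM (67.4 to 252.9), while the other catalytic subunit, Pde6a, had 12.0 TPM (6.99 to 39.8). Gnat1 ranked 5 and Pde6a 6 among the 6 genes in each of the 12 libraries, so this order held in every group. By median summed TPM over the 6 control libraries, Gngt1 ranked 49, Gnb1 59, Pde6g 98, Pde6b 167, Gnat1 733 and Pde6a 2855 among 21887 protein-coding genes.

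**Figure D1:**
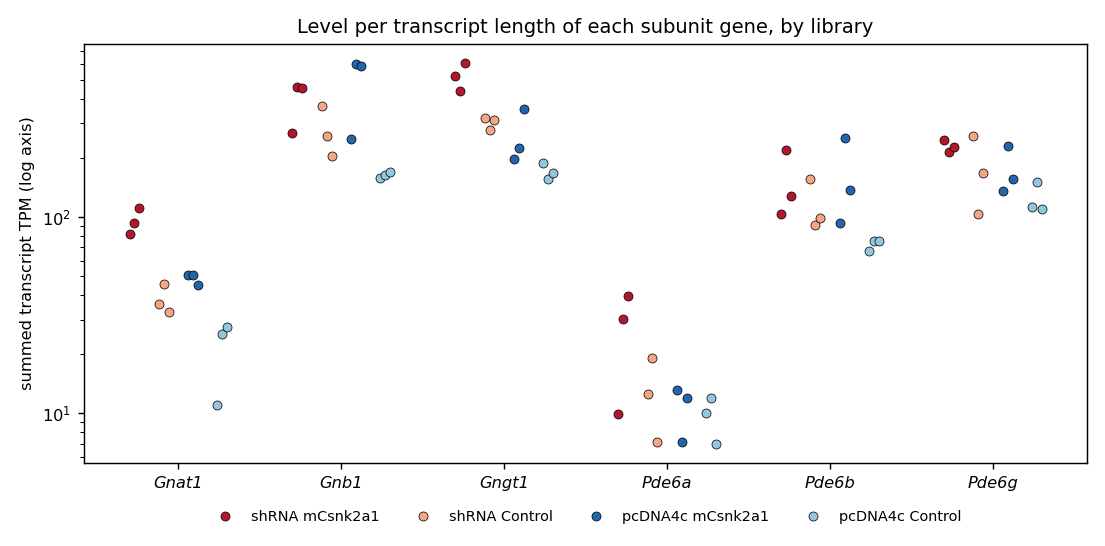
Summed transcript TPM of each subunit gene in each library on a log axis, with the 4 groups side by side for each gene. Pde6a lies between 6.99 and 39.8 TPM and Gnat1 between 11.0 and 111.7 TPM, both below the other 4 genes in every library.

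The cone counterparts of these subunits were uneven at this depth. Gnat2, the cone transducin alpha subunit, had a median of 1.86 TPM and was at 0 in 4 libraries, and the cone PDE6 subunits Pde6c and Pde6h had medians of 2.25 and 1.45 TPM. Gnb3 and Gngt2, the cone beta and gamma subunits, were well above these, with medians of 44.1 and 97.2 TPM. The rod arrestin Sag had a median of 657.2 TPM.

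Facts of the whole series bear on every comparison below. Summed estimated counts ran between 1608926 and 3567121 per library, and every library with a Csnk2a1 construct held more counts than any of its controls. Mitochondrial transcripts took 10.1 to 11.4% of counts in shRNA mCsnk2a1 and 8.26 to 8.69% in shRNA Control, and 9.54 to 12.8% in pcDNA4c mCsnk2a1 and 7.31 to 8.64% in pcDNA4c Control. Csnk2a1 itself had 12.0, 22.2 and 36.0 CPM in shRNA mCsnk2a1 and 66.9, 57.2 and 8.51 CPM in shRNA Control, so the groups overlapped through the third control library. It had 49.9, 144.7 and 121.8 CPM in pcDNA4c mCsnk2a1 and 86.6, 25.0 and 28.2 CPM in pcDNA4c Control, again with overlap. Its log2 differences of -0.92 (SE 0.88) and 1.18 (SE 0.88) did not pass, with edgeR adjusted p = 0.905 and 0.801. All 8 rod markers were detected and none was at 0 in every library of a group. Rod markers summed to between 10400 and 12800 CPM in shRNA mCsnk2a1 and to between 4740 and 6840 CPM in shRNA Control. The same sum was 4640 to 11300 CPM in pcDNA4c mCsnk2a1 and 5260 to 6610 CPM in pcDNA4c Control. In bulk samples such as these, fewer cells of a type and less RNA per cell cannot be told apart.

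With the hairpin against Csnk2a1, all 6 subunit genes had higher average levels than with the control hairpin, by 1.70-fold for Pde6b to 3.31-fold for Gnat1. None of the 6 passed an adjusted p of 0.05 in edgeR's quasi-likelihood test over all 20267 genes tested, and 0% of those genes passed. Differences above 0 were seen for 6 of 6 members and for 48.9% of all genes. Before adjustment, 4 of the 6 members (Gnat1, Gnb1, Gngt1 and Pde6a), all higher, were below the 0.05 level, as were 3.23% of all genes in that direction. The groups did not overlap for 4 of the 6 members (Gnat1, Gnb1, Gngt1 and Pde6g), each with every hairpin library above every control library, which held in that direction for 5.61% of all genes. The members' median log2 difference was 1.04, beside -0.028 for all genes. No member turned direction or passed under any of 17 alternative settings, but 3 did turn when set against the rod markers, as given further on.

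Gnat1, the alpha subunit, had 287.0, 303.4 and 373.3 CPM (counts divided by the TMM-scaled library size) in shRNA mCsnk2a1, and 91.3, 113.1 and 86.8 CPM in shRNA Control. Every hairpin library was far above every control library, and the replicates of each group lay close together. The means were 321.2 ± 45.9 CPM and 97.1 ± 14.1 CPM (SD, n = 3 each). The log2 difference was 1.73 (SE 0.49, edgeR adjusted p = 0.598). Over the alternatives this difference ran between 1.31 and 1.83 and its adjusted p between 0.0522 and 0.861.

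Gngt1, the farnesylated gamma subunit, had 1302, 1001 and 1432 CPM in shRNA mCsnk2a1, and 568.3, 488.9 and 586.6 CPM in shRNA Control. The groups stood apart here too, with averages of 1245 ± 221 CPM and 547.9 ± 52.0 CPM. The log2 difference was 1.18 (SE 0.33, edgeR adjusted p = 0.598). Gnb1, the beta subunit, had 880.0, 1387 and 1418 CPM in shRNA mCsnk2a1, and 876.8, 602.0 and 508.3 CPM in shRNA Control. Its groups met at their edges, since the lowest hairpin library was only just above the highest control library, and on the TPM scale, which leaves out the TMM factors, they overlapped. The log2 difference of Gnb1 was 0.89 (SE 0.35, edgeR adjusted p = 0.598).

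Of the PDE6 subunits, Pde6a had 104.4, 292.0 and 396.5 CPM in shRNA mCsnk2a1, and 95.4, 141.7 and 56.7 CPM in shRNA Control. Libraries 2 and 3 of the hairpin group were high and library 1 lay among the controls, so the groups overlapped. The log2 difference of this catalytic subunit was 1.43 (SE 0.59, edgeR adjusted p = 0.598). Pde6b, the other catalytic subunit, had 662.9, 1294 and 782.7 CPM in shRNA mCsnk2a1, and 720.7, 412.6 and 478.8 CPM in shRNA Control. The first control library lay above the first hairpin library, and the log2 difference was 0.76 (SE 0.39, edgeR adjusted p = 0.607). Pde6g, the inhibitory subunit, had 441.3, 350.5 and 386.2 CPM in shRNA mCsnk2a1, and 332.4, 131.0 and 226.9 CPM in shRNA Control. Its groups did not overlap in CPM but did in TPM, the controls were widely spread, and the log2 difference was 0.77 (SE 0.44, edgeR adjusted p = 0.652).

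**Figure D2:**
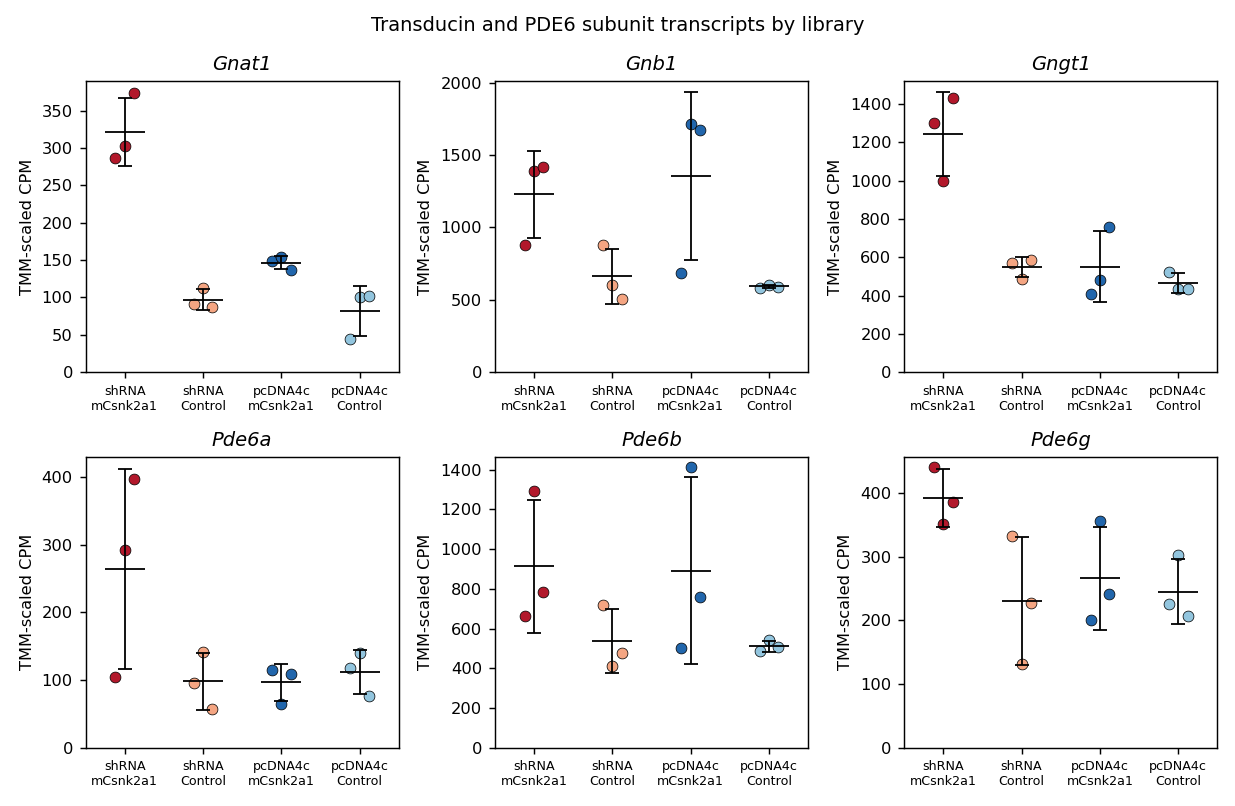
TMM-scaled CPM of each subunit gene in each library, with 1 point per library, the mean as a long bar and ± 1 SD as whiskers (n = 3). Gnat1 and Gngt1 in shRNA mCsnk2a1 lie above all the other 9 libraries, at 287.0 to 373.3 and 1001 to 1432 CPM, and Gnb1 in pcDNA4c mCsnk2a1 splits into 1 library at 683.2 CPM and 2 at 1714 and 1670 CPM.

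With the Csnk2a1 expression vector, the pattern was different from gene to gene. Gnb1 averaged 2.29 times its control level, Gnat1 1.80 times and Pde6b 1.74 times, while Gngt1, Pde6g and Pde6a were within 1.19-fold of their controls. In all, 5 of the 6 members were higher with the vector, as were 45.1% of all genes, and Pde6a was lower, a count that changed with the setting. Gngt1 was lower without construct library 3 (-0.027), Pde6g was lower with library size alone (-0.036) and without construct library 2 (-0.13), and Pde6a was higher on the TPM scale (0.13) and without construct library 2 (0.027). None of the 6 passed, where 0.0987% of all genes did. Before adjustment, 1 of the 6 (Gnb1, higher) was below the 0.05 level, as were 2.15% of all genes in that direction. The groups did not overlap for 2 of the 6, Gnat1 and Gnb1, both higher, which held in that direction for 3.73% of all genes. The members' median log2 difference was 0.52, beside -0.16 for all genes.

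Gnb1 had 683.2, 1714 and 1670 CPM in pcDNA4c mCsnk2a1, and 581.0, 604.5 and 588.9 CPM in pcDNA4c Control. The first construct library lay just above the 3 closely grouped controls and the other two far above them. The log2 difference was 1.20 (SE 0.36, edgeR adjusted p = 0.514). It passed in 2 of 17 alternatives. Without pcDNA4c mCsnk2a1 library 1 it was 1.57 (edgeR adjusted p = 0.0268), and on the deposited normalized values, which hold 11 libraries and not pcDNA4c mCsnk2a1 library 1, it was 1.54 (limma adjusted p = 0.0127).

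Gnat1 had 148.7, 154.1 and 137.3 CPM in pcDNA4c mCsnk2a1, and 43.8, 100.0 and 101.4 CPM in pcDNA4c Control. The groups did not overlap, with the construct libraries within a narrow band and the first control library low. The log2 difference was 0.84 (SE 0.48, edgeR adjusted p = 0.625). Pde6b had 500.4, 1413 and 759.6 CPM in pcDNA4c mCsnk2a1, and 485.6, 541.0 and 508.0 CPM in pcDNA4c Control. Its log2 difference of 0.80 (SE 0.39, edgeR adjusted p = 0.569) came with high values in libraries 2 and 3 of the construct group, and without library 2 it was 0.32.

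Gngt1 had 409.0, 482.8 and 759.0 CPM in pcDNA4c mCsnk2a1, and 523.0, 435.0 and 434.3 CPM in pcDNA4c Control, so that they differed by 0.25 on a log2 basis (SE 0.32, edgeR adjusted p = 0.965). Pde6g had 200.8, 356.5 and 241.0 CPM in pcDNA4c mCsnk2a1, and 226.3, 302.5 and 206.6 CPM in pcDNA4c Control, a difference of 0.12 (SE 0.43, adjusted p = 1.0 in edgeR). Pde6a had 115.5, 65.2 and 109.4 CPM in pcDNA4c mCsnk2a1, and 118.1, 140.5 and 77.0 CPM in pcDNA4c Control, a difference of -0.21 (SE 0.58, adjusted p = 1.0 in edgeR). The groups of these 3 genes overlapped in CPM. On the TPM scale the groups of Pde6b and Gngt1 did not, with ratios of the means of 2.22 and 1.52.

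The difference between the arms was tested directly, as the overexpression difference minus the knockdown difference. It was -0.88 (SE 0.68) for Gnat1, -0.94 (SE 0.45) for Gngt1, -1.64 (SE 0.82) for Pde6a and -0.65 (SE 0.61) for Pde6g, all 4 lower with overexpression. It was 0.31 (SE 0.50) for Gnb1 and 0.036 (SE 0.55) for Pde6b, which turned to -0.45 without pcDNA4c mCsnk2a1 library 2. None of the 6 passed, with edgeR adjusted p between 0.611 and 1.0, where 0.0197% of all genes passed, and none was below the 0.05 level before adjustment, where 8.34% were. A difference between the arms was therefore not detectable for the members with these libraries.

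**Figure D3:**
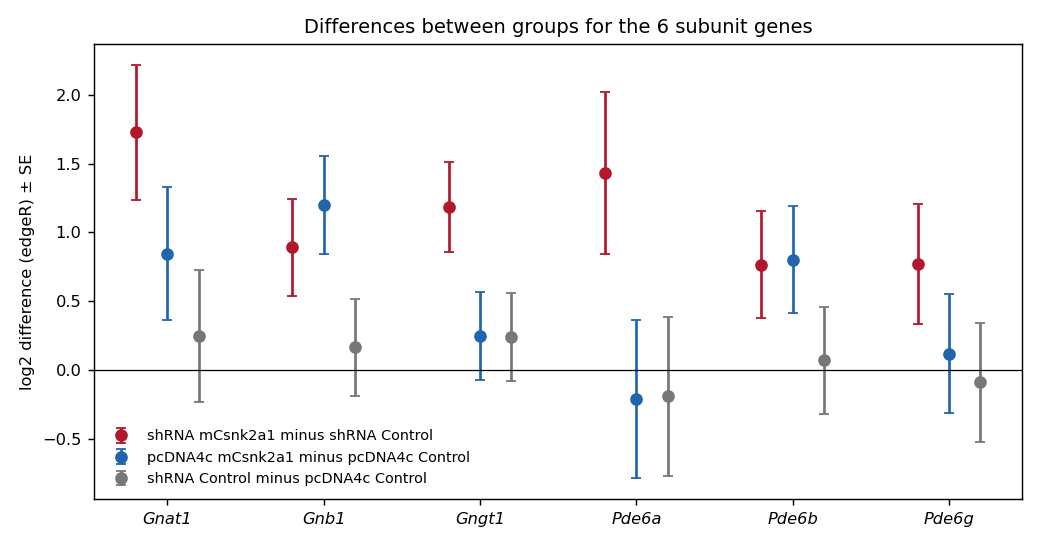
Log2 differences from edgeR with ± 1 SE for the 6 subunit genes in the 2 arms and between the 2 control groups. All 6 knockdown differences lie between 0.76 and 1.73, the overexpression differences lie between -0.21 and 1.20, and those between the controls stay within 0.25 of 0.

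The 2 control groups, which carried different plasmids, were set against each other as a background. The members' log2 differences, shRNA Control minus pcDNA4c Control, ran between -0.19 for Pde6a and 0.25 for Gnat1, with edgeR adjusted p = 1.0 for each. None of the 6 passed, where 0.0691% of all genes did, none was below the 0.05 level before adjustment, where 4.21% were, and no member's groups stood apart, where 13.7% of all genes did. On the TPM scale the shRNA Control averages were 1.79 times those of pcDNA4c Control for Gnat1 and 1.69 times for Gnb1. They were 1.78 times for Gngt1 and 1.58 times for Pde6b, and the groups of these 4 genes did not overlap. Over all genes the median log2 difference was 0 in edgeR and 0.29 on log2(TPM + 1). The share of all genes without overlap in TPM was not taken. Levels across the arms therefore depend on the scaling. Microglia and macrophage markers, 11 of 12 tested, summed to 58.9 to 84.5 CPM in shRNA Control and to 2700 to 3230 CPM in pcDNA4c Control. In pcDNA4c mCsnk2a1 they summed to 36.3 to 83.5 CPM with 7 markers at 0, among them C1qa, Ctss, Lyz2 and Mpeg1, and in shRNA mCsnk2a1 to 10.2 to 39.4 CPM with 5 at 0. Their part in the overexpression differences was not tested.

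Ordered by group mean in CPM, Gnat1 was highest in shRNA mCsnk2a1 (321.2) and next in pcDNA4c mCsnk2a1 (146.7). It was lower in shRNA Control (97.1) and pcDNA4c Control (81.7), and only this last pair of neighbours overlapped. In TPM this changed. Gnat1 in pcDNA4c mCsnk2a1 (45.1 to 50.8) overlapped shRNA Control (32.7 to 45.5), which lay above pcDNA4c Control (11.0 to 27.4). Gnb1 was high in both construct groups, at 1356 CPM in pcDNA4c mCsnk2a1 and 1228 CPM in shRNA mCsnk2a1, which overlapped each other, and lower in the controls, at 662.4 CPM in shRNA Control and 591.4 CPM in pcDNA4c Control, which also overlapped each other. The shRNA mCsnk2a1 libraries lay above both control groups, while pcDNA4c mCsnk2a1 lay above pcDNA4c Control but overlapped shRNA Control through its library 1. Gngt1 stood apart in shRNA mCsnk2a1 only, and its other 3 groups, at 464.1 to 550.2 CPM, overlapped. For Pde6a, Pde6b and Pde6g every pair of neighbouring groups overlapped in CPM. In TPM, pcDNA4c Control lay below every other group for Gnb1 (157.1 to 170.0), Gngt1 (156.6 to 187.8) and Pde6b (67.4 to 75.3). Gnb1 in shRNA mCsnk2a1 overlapped shRNA Control on that scale. The transducin genes together took 0.231 to 0.295% of all counts in shRNA mCsnk2a1 and 0.124 to 0.160% in shRNA Control. They took 0.124 to 0.233% in pcDNA4c mCsnk2a1 and 0.115 to 0.120% in pcDNA4c Control. The PDE6 genes together took 0.113 to 0.176% in shRNA mCsnk2a1 and 0.0716 to 0.119% in shRNA Control, and 0.0813 to 0.165% in pcDNA4c mCsnk2a1 and 0.0836 to 0.0991% in pcDNA4c Control, with overlap in both arms.

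Ratios of subunits within a library do not depend on the scaling between libraries, and are given as values of TPM without a test. The ratio of Gnat1 to Gnb1 was 0.306, 0.205 and 0.247 in shRNA mCsnk2a1, and 0.0973, 0.176 and 0.160 in shRNA Control, so that the groups stood apart by 0.83 on the log2 scale. The ratio of Gnb1 to Gngt1 was 1.26, 2.67 and 1.66 in pcDNA4c mCsnk2a1, and 0.837, 1.05 and 1.02 in pcDNA4c Control, a difference of 0.88 with no overlap. In these libraries, then, the alpha subunit stood higher beside beta with the hairpin, and beta stood higher beside gamma with the vector. Within PDE6, the ratio of Pde6b to Pde6g was 0.694, 1.1 and 0.877 in pcDNA4c mCsnk2a1, and 0.597, 0.497 and 0.683 in pcDNA4c Control, apart by 0.58. The other 9 of the 12 ratio comparisons overlapped, including all those with Pde6a. These comparisons share genes and libraries, and the share without overlap was not taken over other pairs of genes. Those that stood apart are therefore descriptions only.

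**Figure D4:**
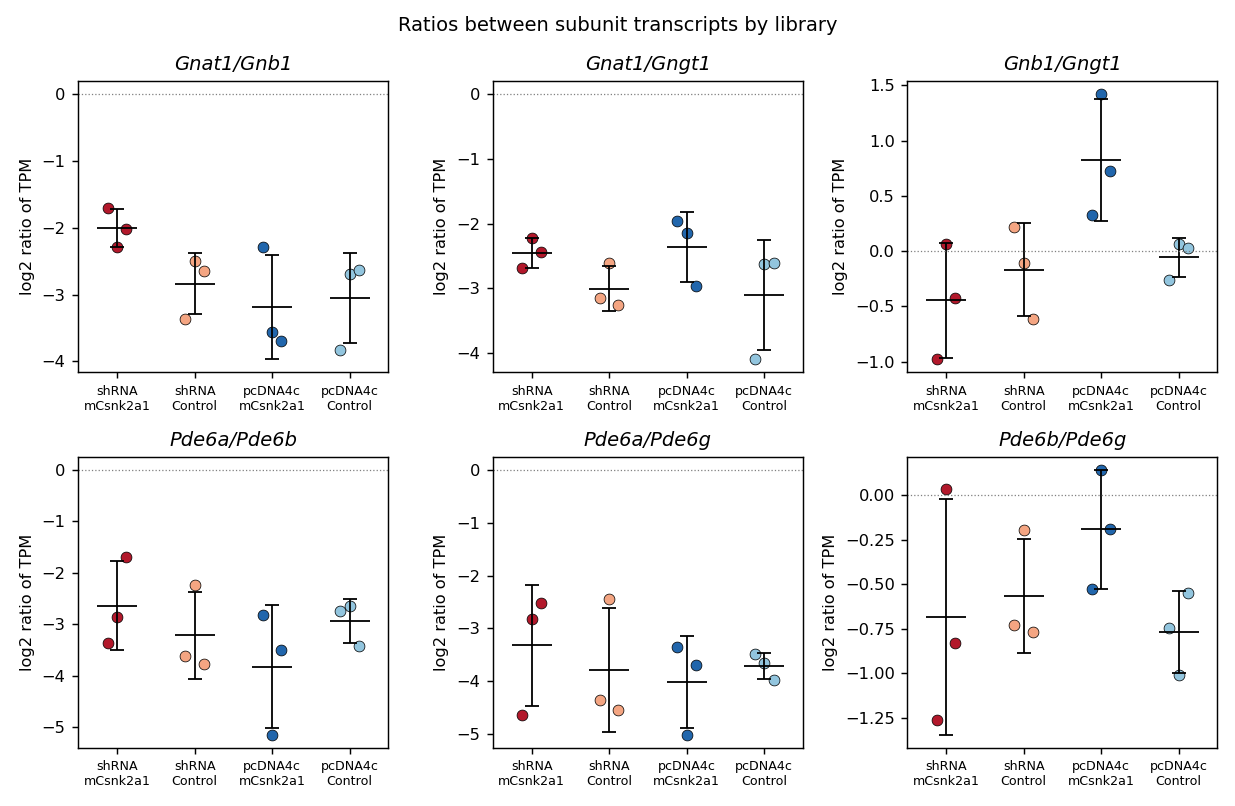
Log2 ratios of TPM between subunits of transducin (top) and PDE6 (bottom) in each library, with the mean and ± 1 SD (n = 3). Gnat1/Gnb1 is higher in shRNA mCsnk2a1 than in shRNA Control without overlap, Gnb1/Gngt1 and Pde6b/Pde6g are higher in pcDNA4c mCsnk2a1 than in pcDNA4c Control without overlap, and the other comparisons within an arm overlap.

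The summed rod markers, Sag among them, were higher in all 3 shRNA mCsnk2a1 libraries and in 2 of the 3 pcDNA4c mCsnk2a1 libraries than in any of their controls, so each member was also expressed as a percentage of that sum in its library, a scaling chosen after the data were seen. Gnat1 amounted to 2.37 to 3.48% of the rod marker sum in shRNA mCsnk2a1 and to 1.33 to 1.98% in shRNA Control, a log2 difference of 0.75 without overlap. Gnb1 amounted to 14.7 to 18.5% in pcDNA4c mCsnk2a1 and to 9.14 to 11.2% in pcDNA4c Control, a log2 difference of 0.67 without overlap. The other 10 comparisons overlapped, and the share of all genes without overlap was not taken on this scale. The knockdown differences of Gnb1 (-0.085), Pde6b (-0.24) and Pde6g (-0.12) turned negative on it. So did the overexpression differences of Gngt1 (-0.22) and Pde6g (-0.32). Gngt1 kept a small positive knockdown difference of 0.19, with 7.83 to 13.3% in shRNA mCsnk2a1 and 8.31 to 12.4% in shRNA Control.

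Markers of other retinal cells are given beside these results, and their part was not tested. Müller glia markers, 9 of 9 tested, summed to 1090 to 1640 CPM in shRNA mCsnk2a1 and 540 to 881 CPM in shRNA Control. Their sum was 618 to 707 CPM in pcDNA4c mCsnk2a1 and 1240 to 1630 CPM in pcDNA4c Control. The pcDNA4c Control sum was mostly Apoe, which averaged 1080 CPM there and 101 CPM in pcDNA4c mCsnk2a1. Vim and Clu were also higher in pcDNA4c Control, while Rlbp1, Glul, Slc1a3, Aqp4, Dkk3 and Sox9 were lower there. Bipolar markers, 8 of 8 tested, summed to 823 to 2090 CPM in shRNA mCsnk2a1 and 574 to 829 CPM in shRNA Control, and to 1000 to 1270 CPM in pcDNA4c mCsnk2a1 and 363 to 541 CPM in pcDNA4c Control. Cone markers, 4 of 5 tested, were near the floor at 39.9 to 95.4 CPM in shRNA mCsnk2a1 and 33.3 to 54.4 CPM in shRNA Control, and 11.4 to 22.9 CPM in pcDNA4c mCsnk2a1 and 52.1 to 95.9 CPM in pcDNA4c Control. The cone opsins Opn1sw and Opn1mw were at 0 in all of pcDNA4c mCsnk2a1, and Opn1sw in all of shRNA Control. Amacrine and horizontal, ganglion, progenitor, pigment epithelium, and vascular and blood markers summed to at most 461, 189, 754, 73.5 and 266 CPM in any library.

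The transcripts behind the gene totals differed most for Gnat1 and Gnb1. The deposited table lists 7 transcripts of Gnat1, and only Gnat1-201 holds the whole coding region of 1050 bases. Gnat1-201 had 76.8, 85.1 and 87.1 TPM in shRNA mCsnk2a1, and 20.7, 17.9 and 14.8 TPM in shRNA Control. The groups lay far apart, and the ratio of their means was 4.67, against 2.51 for the gene total on the same scale. This transcript made up 94.3, 91.0 and 78.0% of Gnat1 TPM in shRNA mCsnk2a1 and 57.6, 39.4 and 45.2% in shRNA Control. The rest in both groups was almost all Gnat1-204, a noncoding processed transcript of 525 bases. In pcDNA4c mCsnk2a1 Gnat1-201 had 16.3, 16.5 and 31.9 TPM, and in pcDNA4c Control it had 8.71, 12.3 and 9.62 TPM, which was 2.11 times as much on average and without overlap. Its share of Gnat1 TPM, 32.1 to 70.8% in pcDNA4c mCsnk2a1 and 35.1 to 78.9% in pcDNA4c Control, overlapped. These values are given as a description, since the transcript was singled out after its values were seen.

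Gnb1 was spread over 9 listed transcripts, of which 4 hold the whole coding region of 1020 bases. Those 4 together made up 23.2 to 33.9% of Gnb1 TPM in shRNA mCsnk2a1 and 18.1 to 27.8% in shRNA Control, and 29.9 to 36.9% in pcDNA4c mCsnk2a1 and 27.6 to 38.8% in pcDNA4c Control. Gnb1-206, a transcript with a retained intron, had the largest median share, 31.8%, followed by Gnb1-209, with a shorter coding region, at 29.9%. In full-length coding transcripts Gnb1 had 88.1, 105.8 and 153.6 TPM in shRNA mCsnk2a1 and 70.5, 71.8 and 36.9 TPM in shRNA Control, which did not overlap. The same sum was 91.9, 179.0 and 207.0 TPM in pcDNA4c mCsnk2a1 and 50.3, 63.5 and 46.9 TPM in pcDNA4c Control, 2.97 times as much on average. For Gngt1, Pde6b and Pde6g a single coding transcript held at least 97.7, 81.1 and 93.2% of the gene's TPM in every library. Pde6a-201 held 56.2 to 100.0% of Pde6a TPM.

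Other genes of rod phototransduction mostly stood on the same side as the subunits with the hairpin. Of 14 listed, 13 were tested, and all 13 were higher in shRNA mCsnk2a1 than in shRNA Control, as were 48.9% of all genes. Their median log2 difference was 1.09. None passed, and 6, all higher, were below the 0.05 level before adjustment, as were 3.23% of all genes in that direction. Sag, the rod arrestin, had 3368 ± 303 CPM in shRNA mCsnk2a1 and 1639 ± 330 CPM in shRNA Control (SD, n = 3 each), without overlap. It differed by 1.04 in log2 units (SE 0.29) and Slc24a1, the cation exchanger of the rod outer segment, by 2.90 (SE 0.77), each at an edgeR adjusted p of 0.598. Gnb5 and Rgs9, partners in the complex that speeds GTP hydrolysis by the transducin alpha subunit, differed by 1.98 (SE 0.70, edgeR adjusted p = 0.598) and 0.74 (SE 0.45, edgeR adjusted p = 0.690). With the expression vector, 10 of the 13 were higher and 3 lower, where 45.1% of all genes were higher. Their median was 0.46, and none passed. Sag differed by 0.32 (SE 0.29, edgeR adjusted p = 0.886), with 1884 ± 747 CPM in pcDNA4c mCsnk2a1 and 1509 ± 338 CPM in pcDNA4c Control. Rgs9 had 302.6 CPM on average in both groups.

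**Figure D5:**
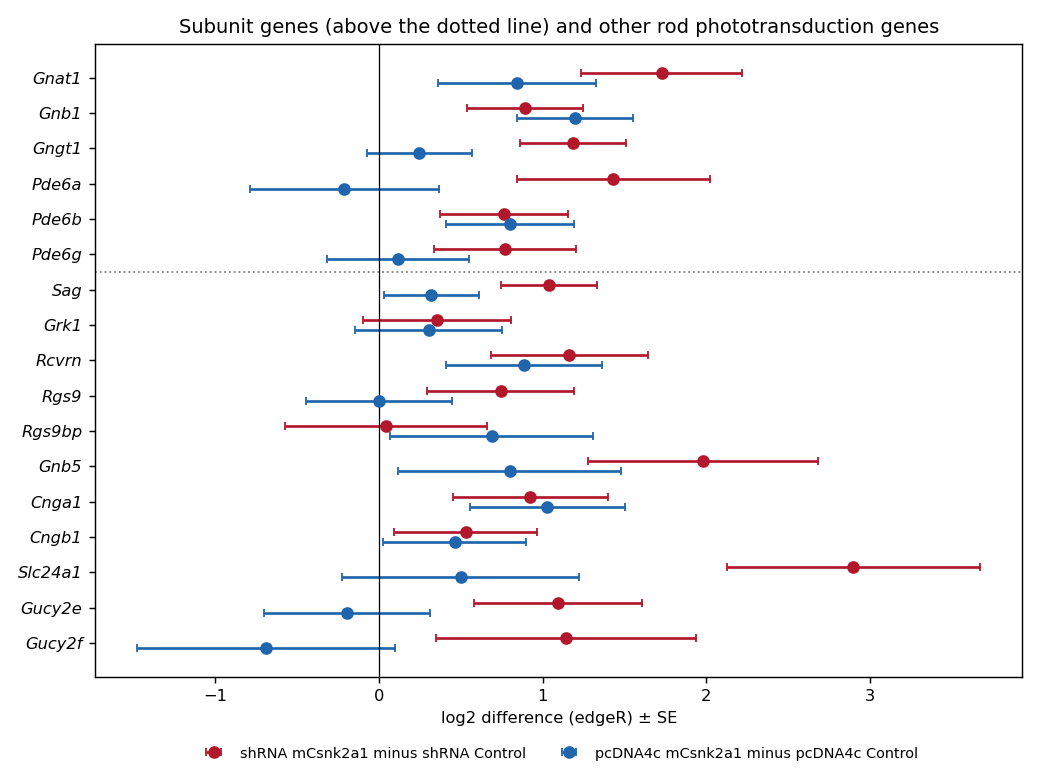
Log2 differences from edgeR with ± 1 SE in both arms for the 6 subunit genes (above the dotted line) and 11 further rod phototransduction genes (below it), leaving out Guca1a, which was at 0 in a whole group. All the knockdown points lie above 0, the overexpression points lie on both sides of 0, and Sag lies at 1.04 in knockdown and 0.32 in overexpression.

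Genes that assemble, chaperone or lipid-modify the subunits were mixed. Of 19, 13 were higher and 6 lower with the hairpin (median log2 difference 0.39), where 48.9% of all genes were higher. Before adjustment 3 of the 19, all higher, were below the 0.05 level, as were 3.23% of all genes in that direction. Likewise 13 were higher and 6 lower with the vector (median 0.40), where 45.1% of all genes were higher. No adjusted p was under 0.05 in either arm. Pdc, phosducin, which binds the beta and gamma subunits of transducin, differed by 0.57 (SE 0.26, edgeR adjusted p = 0.598) with the hairpin and by 0.46 (SE 0.26, edgeR adjusted p = 0.618) with the vector. Unc119, which binds the lipidated alpha subunit, had 373.3, 337.3 and 350.2 CPM in shRNA mCsnk2a1 and 184.6, 202.4 and 140.1 CPM in shRNA Control, a difference of 1.01 (SE 0.41, edgeR adjusted p = 0.598). Fnta, a subunit of the farnesyltransferase, had 87.5, 45.5 and 100.6 CPM in shRNA mCsnk2a1 and 15.0, 0.595 and 8.51 CPM in shRNA Control, a difference of 3.26 (SE 1.18, edgeR adjusted p = 0.598). Aipl1, a chaperone of PDE6, differed by 0.92 (SE 0.67) with the hairpin and 0.64 (SE 0.67) with the vector, with edgeR adjusted p = 0.802 and 0.921.

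The transcription factors of rods were mostly higher with the hairpin and more mixed with the vector. Of 9 rod regulators, 8 were higher and 1 lower with the hairpin (median log2 difference 0.35), where 48.9% of all genes were higher. With the vector 6 were higher and 3 lower (median 0.18), where 45.1% of all genes were higher, and none passed in either arm. Nrl had 228.4, 282.2 and 816.2 CPM in shRNA mCsnk2a1 and 302.3, 356.1 and 357.4 CPM in shRNA Control, and 101.5, 385.6 and 676.7 CPM in pcDNA4c mCsnk2a1 and 467.4, 395.0 and 192.8 CPM in pcDNA4c Control. A single library was high in each construct group, and the log2 differences were 0.39 (SE 0.58) and 0.14 (SE 0.58), with edgeR adjusted p = 0.990 and 1.0. Without that high library they were -0.41 and -0.48. Crx, the homeobox factor, differed by 0.76 (SE 0.31, edgeR adjusted p = 0.598) with the hairpin, where the groups did not overlap, and by -0.025 (SE 0.30) with the vector, which was 0.043 with RLE size factors. Nr2e3, a nuclear receptor of rods, differed by 0.23 (SE 0.41) and -0.044 (SE 0.41), and both directions turned on the TPM scale, at -0.064 and 0.14. Mef2d and Samd7 differed by 0.88 (SE 0.53) and 0.71 (SE 0.45) with the vector, with edgeR adjusted p = 0.661 and 0.697.

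Of the 5 cone counterparts, 2 were higher and 3 lower in each arm, and none passed. Over all genes tested, 48.9% were higher with the hairpin and 45.1% with the vector. Gngt2 had 62.7 ± 20.3 CPM in pcDNA4c mCsnk2a1 and 28.3 ± 12.7 CPM in pcDNA4c Control (SD, n = 3 each), which differed by 1.14 (SE 0.66, edgeR adjusted p = 0.625), and Gnb3 differed by 0.26 (SE 0.51, adjusted p = 0.992 in edgeR). Gnat2, Pde6c and Pde6h had at most 16.7, 25.5 and 50.7 CPM in any library, too little to set beside the rod subunits. Of 14 further G protein subunits, 13 were tested, with 8 higher and 5 lower with the hairpin and 11 higher and 2 lower with the vector, and medians of 0.18 and 0.55. The gamma subunit gene Gng12 had 1.13, 3.08 and 3.92 CPM in shRNA mCsnk2a1 and 47.2, 17.3 and 58.4 CPM in shRNA Control (edgeR adjusted p = 0.598), and Gng2 had 28.9, 0 and 174.0 CPM and 0.519, 9.53 and 9.08 CPM in the same groups (edgeR adjusted p = 0.615). Of 12 other PDE genes, 8 were higher and 4 lower with the hairpin and 6 each way with the vector, with medians of 0.35 and -0.028. The cyclic AMP phosphodiesterase gene Pde8b had 163.4, 87.7 and 46.0 CPM in shRNA mCsnk2a1 and 13.5, 8.93 and 26.7 CPM in shRNA Control (edgeR adjusted p = 0.598), while Pde4a, of the same substrate, was at 0 in all 3 libraries of shRNA mCsnk2a1 and at 8.82, 0 and 26.7 CPM in shRNA Control.

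Across the 12 libraries the members did not all vary together. In log2 CPM, Gnb1 and Pde6b were closest (Pearson r = 0.876, Spearman correlation 0.895), followed by Gnat1 and Gngt1 (r = 0.760, Spearman 0.413). The least alike were the catalytic pair Pde6a and Pde6b by Pearson r (r = 0.234, Spearman 0.0839) and Pde6a and Pde6g by Spearman (r = 0.254, Spearman 0.0350). These points share libraries, depth and group, so the values are descriptions. Among 3710 genes with a mean of at least 50 CPM, those most like the mean profile of the members included Sag (r = 0.898), Sf3a2 (0.880), Snrnp200 (0.874) and Prph2 (0.846), of which Sag and Prph2 encode outer segment proteins. Closest to Gnat1 were Fam171b (0.859), Trim36 (0.853) and Ptn (0.852), and closest to Gnb1 were Cdhr1 (0.930), Purb (0.908) and Elovl4 (0.892). Closest to Gngt1 were Rpph1 (0.904), Car2 (0.900) and Slc1a3 (0.885), the last of these a gene of the Müller glia list. Among those closest to Pde6a were Rptor (0.815) and Setdb2 (0.810), to Pde6b Slc23a2 (0.879), Qk (0.864) and Myrip (0.854), and to Pde6g Pja1 (0.854), Sf3a2 (0.852) and Rpl11 (0.847).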

How the data were processed

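RNA of 12 libraries was sequenced from paired ends on a HiSeq2500, per the labels' protocols, and kallisto 0.45.0, edgeR 3.28 and mm10 are listed in the submitters' processing notes. The deposited gene table holds estimated counts, which were rounded here, the deposited transcript table holds TPM, and another deposited table holds normalized values (a signal on a CPM-like scale) for 11 libraries, so that pcDNA4c mCsnk2a1 library 1 was not analysed here on that scale. For 98.3% of 5055 genes with at least 10 counts in every library, and for all 6 members, the gene value was within 1% of the summed TPM times 1 constant per gene and 1 per library. Differential tests used edgeR 4.0.16 (quasi-likelihood, TMM, filterByExpr with a minimum count of 10, all 12 libraries, Benjamini-Hochberg adjustment over 20267 genes), in R 4.3.3. The knockdown test was also run on simulated data. The outcome of that run is not reported here, so nothing is said about how large a difference these tests could detect. Alternatives used limma 3.58.1, DESeq2 1.42.0, other scalings and filters, a replicate block and leaving out each library. SE is the log2 difference over the square root of F. Coordinates are from the deposited files and transcript types from GENCODE M21. The protocol uses PCR without molecular identifiers, so the depth of 1608926 to 3567121 counts does not count molecules. Named genes were the members, 12 genes by name, up to 2 further genes per list by unadjusted p, and the genes most like the members by Pearson r, and some named by this rule are not reported here. The members and lists were chosen with earlier results of these data known.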

Additional observations from a re-analysis of the deposited data

Results flagged for a closer look

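Single libraries were not looked at for outliers, since each group holds 3. The 6 members, the genes chosen by name and those named from the pathway lists were compared between the arms. For 3 of them, every hairpin library lay on 1 side of the mean of its controls and every vector library on the opposite side, and the test of the difference between the arms did not pass. Gnat2 differed by 2.23 with the hairpin and -2.10 with the vector, a difference of -4.33 (edgeR adjusted p = 0.790), from levels at or near 0. Unc119 differed by 1.01 and -0.34, a difference of -1.35 (edgeR adjusted p = 0.547). Csnk2a1, the targeted gene, differed by -0.92 and 1.18, a difference of 2.09 (edgeR adjusted p = 0.672). None of the 6 subunit genes showed this. The other genes of the lists and the genes most like the members were not covered, and Gnb2, Gnaq, Guca1a and Setdb2 among them also lay on opposite sides in the 2 arms.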

How the results depend on the processing

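None of the 6 knockdown differences passed or turned in any of 17 alternatives each, but Gnb1, Pde6b and Pde6g turned when set against the rod marker sum, a scaling added after seeing the data. The Gnb1 overexpression difference passed on the deposited normalized values (1.54) and without pcDNA4c mCsnk2a1 library 1, and ran between 1.02 and 1.57 when each library was left out in turn. The members that turned were the ones near 0. In overexpression, Pde6a was 0.13 on log2(TPM + 1) and 0.14 on log2(TPM + 0.1), and ran between -0.41 and 0.027 with each library left out, Gngt1 between -0.027 and 0.47 and Pde6g between -0.13 and 0.34, with -0.036 for Pde6g on library size alone. Between the arms, Pde6b was -0.0072 with limma voom and ran between -0.45 and 0.37. Between the controls, Pde6a was 0.32 and 0.34 on the 2 TPM scales and ran between -0.54 and 0.090, and Pde6g was 0.032 with RLE and 0.033 with DESeq2 and 0.42 on both TPM scales and ran between -0.45 and 0.20. With each library left out the control differences ran between -0.056 and 0.44 for Gnat1, -0.093 and 0.33 for Gnb1, and -0.20 and 0.24 for Pde6b. The cause was not tested.

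Of the other genes, Rgs9 in overexpression was -0.17 on library size alone and -0.027 with voom (-0.26 to 0.35 with each library left out). Pde6c ran between -1.27 and 0.16 and Pde6h between -1.81 and 0.22 in knockdown. Nrl in knockdown was -0.24 on both TPM scales (-0.41 to 0.71), and in overexpression -0.028 on library size alone, -0.033 with voom and -0.21 with the replicate block (-0.48 to 0.64). Crx in overexpression was 0.043 with RLE and DESeq2, 0.18 on the deposited normalized values, 0.29 on both TPM scales and 0.023 with the 6 libraries of the arm (-0.22 to 0.22). Nr2e3 was -0.064 and -0.063 on the TPM scales in knockdown (-0.095 to 0.56), and in overexpression 0.018 with RLE and DESeq2, 0.33 on the deposited normalized values, 0.14 on both TPM scales and 0.0067 with the 6 libraries of the arm (-0.40 to 0.37).

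The number of genes passing in knockdown, 0 in edgeR, where 1688 were below 0.05 before adjustment, was 93 with no filter, 183 in DESeq2, 2 in voom, 5 on the deposited normalized values, 1 and 5 on the TPM scales, and 0 to 2 with a library left out. In overexpression 20 became 111, 249, 37, 48, 63 and 69 in the same order, 6 with the 6 libraries of the arm, and 14 to 35 with a library left out, the 35 without pcDNA4c mCsnk2a1 library 1. For the difference between the arms 4 became 137, 209, 1, 16, 25 and 23, with 2 for RLE and for the filter of 50 counts, and 2 to 16 with a library left out. Between the controls 14 became 71 with no filter, 69 in DESeq2, 26 on the deposited normalized values, 49 and 46 on the TPM scales, and 11 to 15 with a library left out. Same-numbered libraries did not deviate together (correlations of -0.040 to 0.0087), so the numbers were not taken as pairs. With a replicate block 1, 26, 9 and 18 genes passed in the 4 comparisons and no member did. The median of all genes moved by -0.19 and -0.14 on library size alone in knockdown and overexpression, and by -0.28 and 0.10 on log2(TPM + 1).

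Of the 3 genes most like each member, 1 for Gnat1, 0 for Pde6a and 1 for Pde6g were shared at a minimum of 20 CPM. By Spearman correlation 0 were shared for Gnb1, 1 for Gngt1, 1 for Pde6a and 1 for Pde6b, and 2 of 5 for the mean profile. Subunit ratios from estimated counts give the same group differences as those from TPM by construction. Libraries of 50 to 100 cells limit the precision, and the common biological coefficient of variation was 1.26.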
